A study of Rattus norvegicus with 9 samples.

Results

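The 3 arrays of cultured sympathetic neurons given BMP-7 for 24 hr (BMP24h) were compared with the 3 arrays of neurons given it for 6 hr (BMP6h), 6 of the 9 arrays of the study. All 8740 probe sets left after removal of 59 control probe sets were used, and together they name 4746 genes. The neurons were dissociated from superior cervical ganglia of Holtzman rat embryos at day 21 and grown without serum in nerve growth factor at 100 ng/ml, with cytosine arabinoside (Ara-C) for 48 hr to deplete dividing non-neuronal cells. BMP-7 was added at 50 ng/ml on day 5. The 3 control arrays come from cultures that stayed in medium without BMP-7 for 24 hr, and there is no control for 6 hr. Each RNA sample was pooled from several cultures. Arrays were processed in 2 batches, the first with replicate 1 of every condition (10 µg of cRNA) and the second with replicates 2 and 3 (5 µg). Per the study's Methods, cultures of 1 dissection gave 1 RNA sample of each condition, 3 dissections were used, and RNA of every condition was isolated on day 6. Age at collection is thus given as equal for the 2 exposures. The sources used here do not tie a replicate number to a dissection.

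BMP-7 is a secreted ligand of the transforming growth factor-β family. It binds paired type I and type II serine/threonine kinase receptors, which phosphorylate Smad1, Smad5 and Smad8, and these enter the nucleus with Smad4 and switch on direct targets such as the Id repressors. Several of the direct targets, among them noggin and the inhibitory Smads, act back on the pathway. In sympathetic neurons BMP-7 is known for starting the growth of dendrites, which these neurons lack when grown in nerve growth factor alone.

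All values are log2 expression values on the deposited RMA scale, and a difference of 1 is a doubling of the measured signal. The cultures carried the defining transcripts of sympathetic neurons, with control means of 13.49 for Th and 11.94 for Dbh, the enzymes that open and close the synthesis of noradrenaline. At its brightest probe set none of the 17 measured sympathetic neuron markers met the thresholds given below, and neither did any of 17 glial, 14 vascular or 15 macrophage and blood cell markers. Fibroblast and matrix transcripts were also present, with control means of 10.30 for Col1a1 and 9.78 for Dcn. The mean log2 value of the 26 measured fibroblast and matrix markers was 9.19 to 9.25 on the BMP6h arrays, 8.95 to 9.10 on the BMP24h arrays and 9.14 to 9.35 on the control arrays. It was thus lower on every BMP24h array than on any BMP6h array. At the brightest probe set 19 of the 26 markers had a negative difference, against 2056 of all 4746 genes, and 2, Vim and Igfbp3, met the thresholds. At any probe set 6 markers met them, with Dcn (-0.69), Loxl1 (-0.49) and Fn1 (-0.42) also lower and Thy1 (0.28) higher. In cultures such as these, fewer cells of a type and less RNA per cell cannot be told apart. BMP6h replicate 2 stood apart, since 9.99% of its probe sets differed by over 1 log2 unit from the average of replicates 1 and 3, where the same measure was 4.21% for BMP6h replicate 3 and 1.09% or less for each BMP24h array. Named genes that met the thresholds given below with all 9 arrays but not without it are marked as such. A gene without such a mark may still depend on another array. Of 104 named probe sets at the thresholds, 44 met them in each of the 9 fits that left out 1 array.

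No probe set passed an adjusted p of 0.05 between 24 hr and 6 hr in limma (0% of 8740). The lowest adjusted p was 0.114, shared by Gfra2, Csrp2 and Egln3, and the ordinary two-way analysis of variance gave 0 as well. When replicate numbers replaced the batch as the blocking term 5 probe sets passed, those of Egr1, Gfra2, Csrp2 and Ngfr described below and 1 with no gene named here. An unadjusted p under 0.05 was held by 259 probe sets (2.96%), which is below the 5% that the threshold itself would pass among unchanged features. The study's Methods took a fold change of 1.2 or more with an unadjusted p below 0.05, and at these thresholds 255 probe sets differed (2.92%), 122 of them higher at 24 hr (1.4%) and 133 lower (1.52%). They name 89 genes that were higher and 100 that were lower. The words higher and lower below give the sign of a difference at these thresholds and not a call of the adjusted test. The differences were modest, with a median size of 0.52 on the log2 scale, 161 under 1.5-fold and 21 of at least 2-fold (14 higher, 7 lower).

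Arrays of the 2 times did not overlap for 236 of the 255 probe sets, against 845 of all probe sets (9.67%). The sign was the same in both batches for 254. The 255 were chosen on these same arrays, so both counts follow largely from that choice and are no replication. Without BMP6h replicate 2 all 255 kept their sign and 162 still met the thresholds (63 of the 122 higher, 99 of the 133 lower), and 84 met them in each of the 9 fits that left out 1 array. Fewer of the 255, 132, still met them without BMP6h replicate 1, and 187 did without BMP6h replicate 3. The counts themselves depended on single arrays. They were 382 higher and 342 lower without BMP6h replicate 3, 94 and 78 without BMP6h replicate 1, 76 and 68 without BMP24h replicate 1, and 159 and 208 without BMP24h replicate 3. Of 100 genes at the thresholds that are measured by at least 2 probe sets, 79 had the same sign at all of them and 33 met the thresholds at 2 or more.

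Each of the 255 probe sets was placed by its differences from control at 6 hr and at 24 hr, with a fold change of 1.2 (0.263 on the log2 scale) as the limit. Those within the limit at 6 hr and beyond it at 24 hr were called late, and those beyond it at both times on the same side and farther at 24 hr were called further. Both kinds had moved on. Those beyond the limit at 6 hr and within it at 24 hr were called a return, and those beyond it at both times but nearer to control at 24 hr a partial return. The BMP6h arrays enter both the choice of the 255 and their place, so these counts are a description with no test.

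Most of the differences between the times lay with transcripts that had moved on. There were 166 such probe sets (65.1% of the 255), of which 138 were late (58 higher, 80 lower) and 28 further (21 higher, 7 lower). Returns and partial returns numbered 38 (14.9%), 14 of them higher at 24 hr and 24 lower. A further 14 crossed from one side of control to the other and 37 lay within the limit at both times. Over all 8740 probe sets, 11.5% had moved on and 23% had returned or partly returned. Without BMP6h replicate 2 all 166 that had moved on kept that place, judged by the differences from control alone and not by the thresholds. The 24 hr difference from control, which that place requires, does not depend on the BMP6h arrays. Of the late ones, 34 of the 58 higher and 68 of the 80 lower still met the thresholds without that array. Of the further ones, 18 of the 21 higher and all 7 lower did. Of the returned ones 22 of the 24 lower at 24 hr kept their place, but only 5 of the 14 higher did. The count moved on was 80 without BMP6h replicate 1 and 110 without BMP24h replicate 1. The count returned ran from 13 without BMP24h replicate 2 and 16 without BMP24h replicate 1 over 58 without BMP6h replicate 1 and 72 without BMP24h replicate 3 to 452 without BMP6h replicate 3. In that last fit 131 had moved on, so the returned ones were the larger group there.

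**Figure D1:**
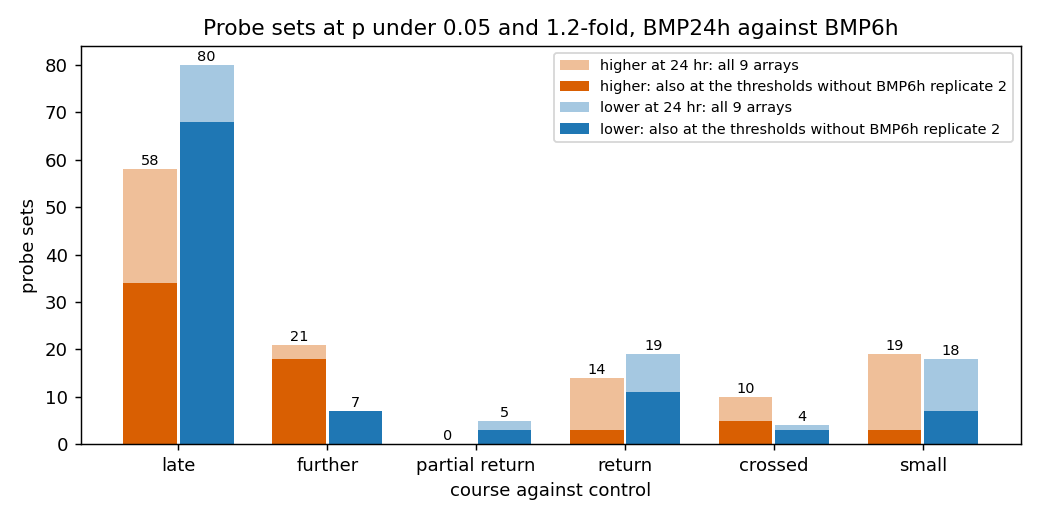
Number of probe sets (y axis) at an unadjusted p under 0.05 and a 1.2-fold difference between BMP24h and BMP6h, by course against control (x axis) and direction. The dark part of each bar is the number that also met the thresholds without BMP6h replicate 2. Late probe sets are the most numerous (58 higher, 80 lower), and only 3 of the 14 returns that were higher at 24 hr met the thresholds without that array.

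Of 22 measured direct BMP targets and feedback inhibitors, 2 were higher at 24 hr than at 6 hr (Nog and Tmeff1) and 2 lower (Id2 and Pmepa1), against 1.64% higher and 1.69% lower among all 4746 genes at their brightest probe set. The median difference between the times was 0.01, beside 0.03 for all genes, while the median difference from control was 0.34 at 6 hr and 0.40 at 24 hr. The counts of every list below are to be read beside the same shares of 1.64% and 1.69%. Next, 4 promoters of genes with different courses are shown as examples, from 250 bases before to 10 bases after the start (RefSeq, build GRCr8, given 5′ to 3′ on the strand of the gene). Each of them holds a marked motif, so they do not show how common a motif is in a course. Nog and Csrp2 had moved on, Nog upward and Csrp2 downward, and Pmepa1 and Dusp1 had returned or partly returned from a higher value at 6 hr. Capitals mark matches on either strand to GGCGCC, a GC-rich motif of the Smad proteins, to the palindromic Smad motif GTCTAGAC, to the cAMP response element TGACGTCA, to the E-box CACGTG or to GACGTG, a motif of hypoxia-inducible factor.
Nog, chr10:74627492-74627751, minus strand: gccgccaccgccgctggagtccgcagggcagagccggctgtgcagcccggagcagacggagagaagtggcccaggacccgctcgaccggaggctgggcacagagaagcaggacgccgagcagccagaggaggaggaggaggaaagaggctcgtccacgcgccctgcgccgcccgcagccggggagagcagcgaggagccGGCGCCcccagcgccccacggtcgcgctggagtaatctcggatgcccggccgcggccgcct
Csrp2, chr7:48235165-48235424, plus strand: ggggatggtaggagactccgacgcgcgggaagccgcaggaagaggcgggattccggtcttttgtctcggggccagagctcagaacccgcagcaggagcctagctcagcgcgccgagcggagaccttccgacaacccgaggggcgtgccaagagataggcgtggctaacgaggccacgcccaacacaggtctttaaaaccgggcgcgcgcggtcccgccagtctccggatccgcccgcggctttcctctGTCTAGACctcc
Pmepa1, chr3:182478640-182478899, minus strand: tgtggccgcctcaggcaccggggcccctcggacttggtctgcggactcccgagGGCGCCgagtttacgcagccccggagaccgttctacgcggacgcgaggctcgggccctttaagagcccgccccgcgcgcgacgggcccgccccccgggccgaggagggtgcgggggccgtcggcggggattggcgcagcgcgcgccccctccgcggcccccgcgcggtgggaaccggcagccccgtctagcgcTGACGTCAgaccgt
Dusp1, chr10:17184603-17184862, plus strand: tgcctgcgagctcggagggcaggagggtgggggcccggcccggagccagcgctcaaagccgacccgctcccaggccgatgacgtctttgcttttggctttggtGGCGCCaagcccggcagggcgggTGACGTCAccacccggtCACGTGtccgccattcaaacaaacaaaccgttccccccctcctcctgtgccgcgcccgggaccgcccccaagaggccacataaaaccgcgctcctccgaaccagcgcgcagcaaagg

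In these windows Nog held GGCGCC from 51 bases before the start, and Csrp2 held GTCTAGAC from 2 bases before it. Pmepa1 and Dusp1 each held both GGCGCC and TGACGTCA, and Dusp1 also the E-box. Of the 4746 measured genes 3673 have a single promoter in the table, and in its windows of 250 bases before to 50 after the start 18.9% held GGCGCC, 0.272% GTCTAGAC, 2.4% TGACGTCA, 8.66% the E-box and 8.82% the motif of hypoxia-inducible factor. The last 2 motifs differ in 1 base, so that the same 6 bases cannot match both. Of 41 promoters of genes that had moved on and were higher at 24 hr, 16 (39%) held GGCGCC, and of 54 of genes that had moved on and were lower, 8 (14.8%) did. Of 11 promoters of genes that had returned and were lower at 24 hr, 4 held GGCGCC and 3 held TGACGTCA. A match describes the letters in the window and is not evidence of binding.

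Nog encodes noggin, a secreted protein that binds BMPs and keeps them from their receptors. Its values were 7.83, 7.96 and 7.85 on the BMP6h arrays and 8.62, 8.82 and 8.40 on the BMP24h arrays, above 5.23 to 6.30 on the control arrays. All 3 arrays at 24 hr lay above all 3 at 6 hr, so that noggin moved on from a level already high at 6 hr. The difference was 0.74 (standard error 0.26, unadjusted p = 0.0236, limma adjusted p = 0.939), and a second, dimmer probe set had 1.06. At the first probe set Nog met the thresholds in 5 of the 9 leave-one-out fits.

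Tmeff1, a transmembrane protein with follistatin-like domains, was late, at 9.05, 9.45 and 8.81 at 6 hr, around the control values of 8.85 to 9.12, and at 9.94, 9.77 and 10.13 at 24 hr. Its difference was 0.84 (standard error 0.19, adjusted p = 0.699).

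Id2 is a repressor that binds basic helix-loop-helix transcription factors and keeps them from DNA. It stood at 9.31, 9.16 and 9.36 at 6 hr and at 8.66, 8.83 and 9.01 at 24 hr, against 6.55 to 7.02 in control cultures. The 24 hr arrays lay below the 6 hr arrays and far above control, a partial return of -0.44 (standard error 0.17, adjusted p = 0.939). Id2 met the thresholds in 5 of the 9 leave-one-out fits. Id1 and Id3, repressors of the same family, had no such step, with differences of 0.04 (standard error 0.28) and -0.05 (standard error 0.17) between the times and overlapping arrays. Hand1, a transcription factor of sympathetic development, had -0.10 (standard error 0.19) and Klf10, a zinc finger factor induced by TGF-β, 0.03 (standard error 0.17). Vegfa, a vascular growth factor, had -0.09 (standard error 0.13) and lay within the 1.2-fold limit of control at both times at its brightest probe set. Another 2 Vegfa probe sets lay above control by 0.45 and 0.33 at 6 hr and by 0.35 and 0.30 at 24 hr. The sign of these 5 small differences depended on the setting.

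Pmepa1, a membrane protein that binds receptor-activated Smads and restrains TGF-β signaling, returned. It was 9.49, 9.67 and 9.48 at 6 hr and 8.88, 9.08 and 8.79 at 24 hr, with control arrays at 8.53 to 8.75. The groups did not overlap, and the difference was -0.63 (standard error 0.13, unadjusted p = 0.00169, adjusted p = 0.513) and met the thresholds in all 9 leave-one-out fits.

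Among 28 measured ligands, receptors and Smads of the BMP and TGF-β pathways, Smad1 was lower at 24 hr and no gene was higher, with a median of -0.01. Smad1, which carries the BMP signal to the nucleus, had 6.41, 6.38 and 6.47 at 6 hr and 5.97, 5.87 and 6.26 at 24 hr, a difference of -0.38 (standard error 0.14, adjusted p = 0.939). Its thresholds were met in 5 of the 9 leave-one-out fits. The Notch pathway had 1 of 18 measured genes higher. It was Jag1, a Notch ligand, which moved further, from 5.79, 6.27 and 6.00 to 6.85, 6.54 and 7.00, a difference of 0.77 (standard error 0.20, adjusted p = 0.859), with control arrays at 5.01 to 5.46.

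**Figure D2:**
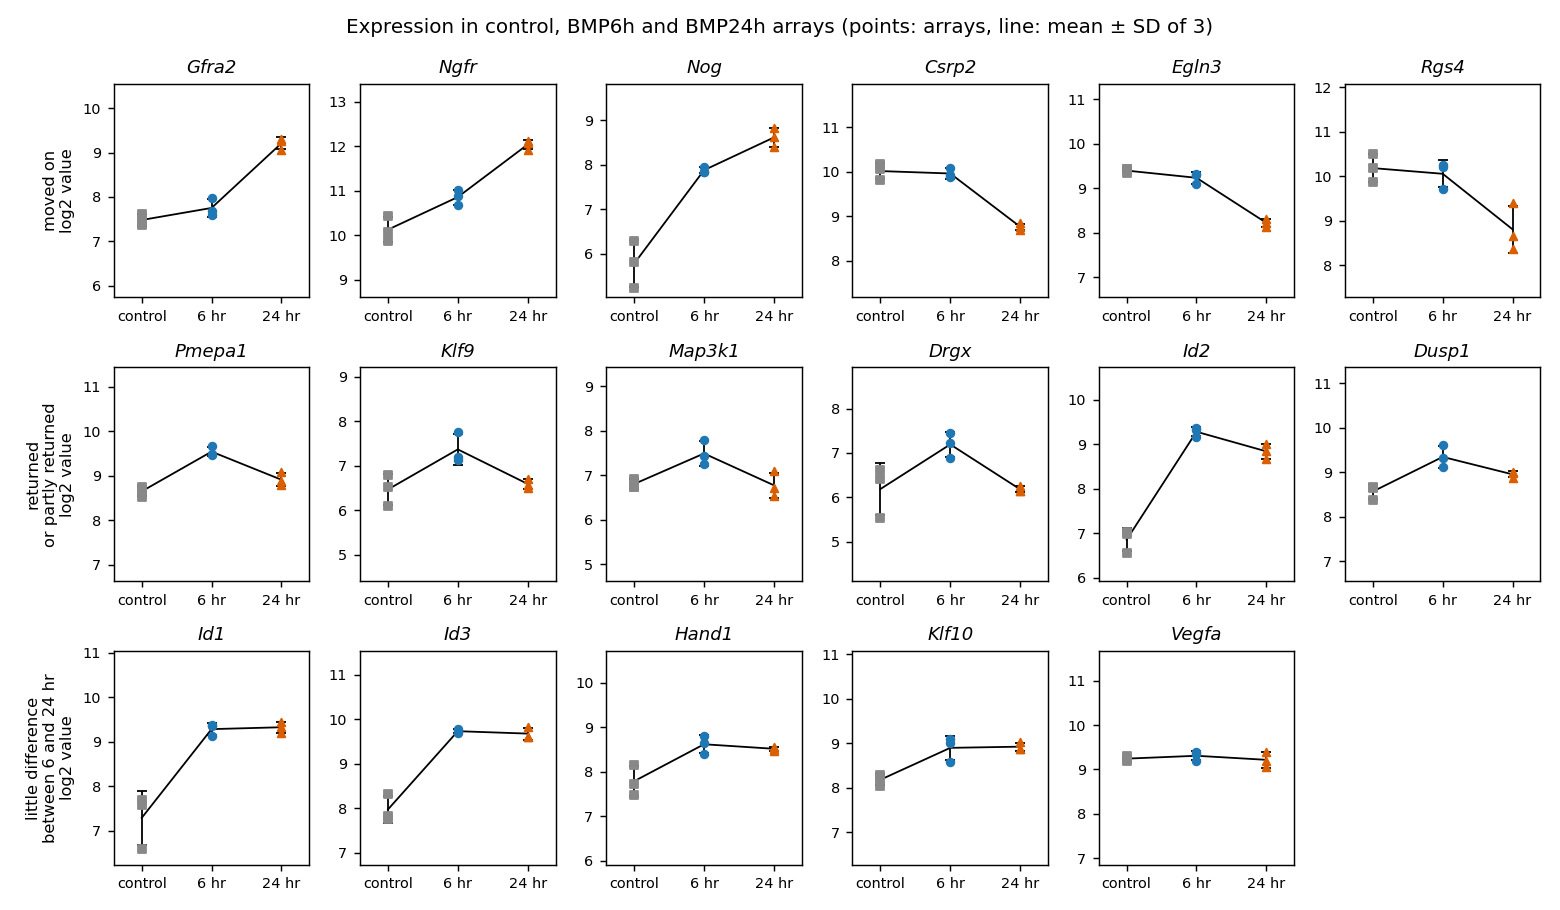
Log2 expression (y axis, the same span in each panel) of 17 genes in control, BMP6h and BMP24h cultures (x axis), with arrays as points and mean ± SD of 3 arrays as the line. In the top row the 24 hr values lie farther from control than the 6 hr values, in the middle row they lie nearer to control, and in the bottom row the 6 hr and 24 hr arrays overlap.

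Gfra2 encodes the co-receptor through which neurturin, a ligand of the GDNF family, acts on Ret. The BMP6h arrays had 7.68, 7.59 and 7.99 and the BMP24h arrays 9.31, 9.06 and 9.25, against 7.37 to 7.62 in control cultures. The 6 hr arrays lay close to control and the 24 hr arrays well above both, a 2.74-fold difference (log2 1.45, standard error 0.15, unadjusted p = 1.57e-05, adjusted p = 0.114, or 0.0317 with the replicate block). A second probe set had 0.84.

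Ngfr, the p75 receptor that binds all neurotrophins, moved further at 1 probe set, from 10.88, 10.67 and 11.01 to 12.07, 11.92 and 12.12, a 2.27-fold difference (log2 1.18, standard error 0.18, adjusted p = 0.228, or 0.0472 with the replicate block). The other Ngfr probe set, equally bright, had 0.21 (unadjusted p = 0.154), so the 2 differ in size. Apart from Gfra2 and Ngfr, no gene among 17 measured neurotrophin and GDNF family receptors and ligands met the thresholds at any probe set.

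Cxcr4, the receptor of the chemokine Cxcl12, was further at each of its 3 probe sets, with differences of 1.07, 0.97 and 0.98. At the brightest it went from 9.62, 9.85 and 9.77 to 10.79, 10.43 and 10.94, with no overlap (standard error 0.16, unadjusted p = 0.000411, adjusted p = 0.31). It was the single gene at the thresholds among 16 measured chemokines and chemokine receptors.

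Rasgrf1, an exchange factor that activates Ras, was 6.07, 6.52 and 5.96 at 6 hr and 7.39, 7.80 and 6.93 at 24 hr (log2 1.19, standard error 0.42). Its control arrays spread from 5.39 to 7.03, and it met the thresholds in 5 of the 9 leave-one-out fits.

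Hsd11b2, which inactivates glucocorticoids inside cells, was 6.68, 6.41 and 7.08 at 6 hr and 7.88, 8.10 and 8.11 at 24 hr, 2.47-fold higher (log2 1.30, standard error 0.20, adjusted p = 0.258). The glucocorticoid receptor gene Nr3c1 gave no single direction, since its 3 probe sets had 0.43, 0.12 and -0.59 and only the first met the thresholds. Among 29 measured nuclear receptor and glucocorticoid genes 3 were higher and 4 lower, against 1.64% and 1.69% of all genes, with a median of 0.01. Thra, the thyroid hormone receptor alpha, had a late difference of -0.27 (standard error 0.11) that did not meet the thresholds without BMP6h replicate 2, and Rxrg, the retinoid X receptor gamma, returned. Rxrg was 7.78, 8.10 and 7.44 at 6 hr and 7.12, 7.20 and 7.26 at 24 hr, with control at 6.90 to 7.08 (log2 -0.58, standard error 0.18, adjusted p = 0.939), and each of its 3 probe sets was negative (-0.58, -0.63 and -0.44).

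Immediate early genes did not share a direction. Of 32 measured, 1 was higher and 4 were lower, against 1.64% and 1.69% of all genes, with a median of 0.02. Egr1, a zinc finger transcription factor induced within minutes by many stimuli, had the largest difference of all named genes. The BMP6h arrays had 8.66, 8.20 and 9.31, the BMP24h arrays 10.67, 9.95 and 11.14 and the control arrays 9.09 to 9.64. At 6 hr 2 of the 3 arrays lay below control and at 24 hr all 3 lay above it, and the difference between the times was 3.65-fold (log2 1.87, standard error 0.37, unadjusted p = 0.00119, adjusted p = 0.414, or 0.0317 with the replicate block). Other Egr1 probe sets had 1.48, 1.21 and 0.22.

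The members that were lower include both returns and late differences. Klf9, a Krüppel-like factor induced by thyroid hormone and glucocorticoids, returned, from 7.20, 7.77 and 7.13 at 6 hr to 6.71, 6.56 and 6.49 at 24 hr, with control at 6.09 to 6.79. The 24 hr arrays lay within the range of the control arrays and below every 6 hr array (log2 -0.78, standard error 0.23, adjusted p = 0.939). Dusp1, a phosphatase that switches off MAP kinases, made a partial return, from 9.32, 9.61 and 9.11 to 8.87, 9.00 and 8.98 against 8.38 to 8.68 in control cultures (log2 -0.39, standard error 0.16). Its 3 probe sets had -0.39, -0.53 and -0.32, but the first met the thresholds in 2 of the 9 leave-one-out fits and did not without BMP6h replicate 2, where it had -0.25.

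Jund, an AP-1 subunit, was late (log2 -0.36, standard error 0.13). Bhlhe41, a helix-loop-helix repressor of the circadian clock, crossed from 7.38, 7.77 and 7.03 to 6.27, 6.52 and 6.22, with control at 6.92 to 7.13 (log2 -1.05, standard error 0.20, adjusted p = 0.366).

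Outside the lists, 2 regulators that returned met the thresholds in all 9 leave-one-out fits. Map3k1, a kinase at the head of MAP kinase cascades, was 7.79, 7.26 and 7.42 at 6 hr and 6.53, 6.71 and 7.09 at 24 hr, around the control values of 6.74 to 6.92 (log2 -0.71, standard error 0.20, adjusted p = 0.939), and its other probe sets had -0.67 and -0.58. Drgx, a homeobox factor of sensory ganglia, was 6.90, 7.23 and 7.45 at 6 hr and 6.26, 6.15 and 6.14 at 24 hr (log2 -1.01, standard error 0.29). Its control arrays spread from 5.54 to 6.62.

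The other returns rested more on single arrays. Chl1, a neural adhesion molecule (-0.75), Pou3f1, a POU domain factor (-0.66), Dlg2, a scaffold of synapses (-0.65), and Jak1, a cytokine receptor kinase (-0.65), met the thresholds in 3 to 5 of the 9 leave-one-out fits. The 6 hr and 24 hr arrays overlapped for Pou3f1, Dlg2 and Jak1. The Dlg2 probe set was dim, with a mean of 3.69, and a brighter one had -0.08. Of Chl1, Pou3f1, Dlg2 and Jak1 only Pou3f1 met the thresholds without BMP6h replicate 2. Acsl1, which activates long-chain fatty acids, returned at 1 probe set (-0.65, not at the thresholds without that array) and was late at its brightest (-0.43). Among the returns that were higher at 24 hr, the largest by size were Phf20, Nudt6, Cpt1b, Atxn3, Hsd17b6, Nr3c1, Fdx1 and Lman1, with differences of 0.56 to 0.39. Of these 8 only Phf20, a reader of histone marks, met the thresholds without BMP6h replicate 2 (log2 0.37).

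**Figure D3:**
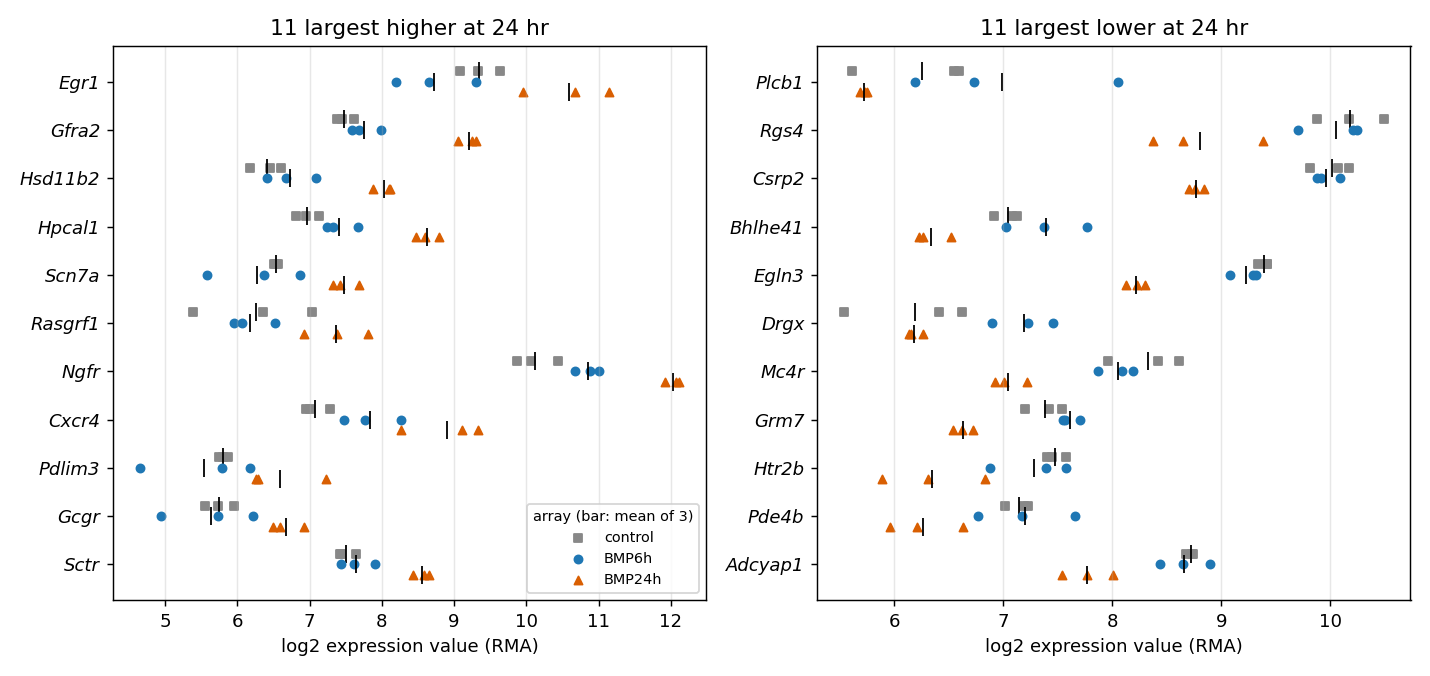
Log2 expression (x axis) on each array for the 11 genes with the largest higher (left) and the 11 with the largest lower (right) difference at 24 hr, with squares for control, circles for BMP6h, triangles for BMP24h and a bar at each mean of 3 arrays. The BMP24h arrays lie apart from the BMP6h arrays for all 22 genes because the rule required it.

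The 22 genes in the plot of the largest differences are 11 higher ones (differences of 0.91 to 1.87) and 11 lower ones (-0.89 to -1.27) with no overlap between the times. Of these, 9 of the higher and 8 of the lower ones had moved on, 2 higher and 2 lower ones had crossed, and 1, Drgx, had returned. At the thresholds of the Methods 18 of the 22 held in every leave-one-out fit, and 21 held without BMP6h replicate 2. The exception without that array was Pdlim3, a PDZ and LIM domain protein of the actin cytoskeleton, at 0.56 in place of 1.05.

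Rgs4, Plcb1 and Pde4b, components of G protein signaling, were among the 11 genes with the largest negative differences. Of 50 measured RGS proteins, phospholipases, phosphodiesterases, adenylyl cyclases and kinase A genes, 4 were lower and 1 was higher, against 1.69% lower and 1.64% higher of all genes, with a median of -0.05. Rgs4, which shuts off Gq and Gi proteins, went from 10.20, 9.70 and 10.25 at 6 hr, near the control values of 9.87 to 10.49, to 8.65, 8.37 and 9.38 at 24 hr. It was 2.38-fold lower with no overlap (log2 -1.25, standard error 0.30, unadjusted p = 0.00343, adjusted p = 0.767).

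Plcb1, the phospholipase C that Gq activates, was 8.70, 8.76 and 8.68 at 6 hr and 7.75, 7.53 and 7.98 at 24 hr at its brightest probe set. The 6 hr arrays matched the control arrays, at 8.70 to 8.73, and the difference was -0.96 (standard error 0.14, unadjusted p = 0.000136, adjusted p = 0.198). A dimmer probe set had -1.27, with BMP6h replicate 2 far above the other 6 hr arrays, and -0.69 without it, and another had -0.17. Plcb3, a related phospholipase, had the opposite sign, from 7.81, 7.61 and 7.85 to 8.57, 8.70 and 8.08 (log2 0.70, standard error 0.19, adjusted p = 0.939).

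Pde4b, which degrades cAMP, had -0.93, -0.57 and -0.48 at 3 probe sets and 0.16 at another. Akap12, an anchoring protein of kinase A, had -0.42 (standard error 0.13), and -0.12 at a second probe set that did not meet the thresholds. Hpcal1, a neuronal calcium sensor, was 7.25, 7.67 and 7.32 at 6 hr and 8.80, 8.60 and 8.47 at 24 hr, 2.31-fold higher (log2 1.21, standard error 0.17, adjusted p = 0.181). Calb1, a calcium buffer, had the opposite sign (log2 -0.53, standard error 0.18). In all, 2 of the 24 measured calcium-binding genes were higher and 3 lower, with a median of -0.08.

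Among 55 measured receptors for monoamines, adenosine and peptides, 4 were higher and 4 lower, against 1.64% and 1.69% of all genes. Mc4r, a melanocortin receptor, was 8.09, 7.87 and 8.19 at 6 hr and 6.92, 7.01 and 7.21 at 24 hr, all 3 of which lay below control values of 7.96 to 8.61 (log2 -1.002, standard error 0.19, adjusted p = 0.366). Htr2b, a Gq-coupled serotonin receptor, was 7.39, 6.88 and 7.58 at 6 hr and 6.31, 6.83 and 5.89 at 24 hr (log2 -0.94, standard error 0.27). One 24 hr array of Htr2b nearly reached the lowest 6 hr array.

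Adora2a, an adenosine receptor, had -0.46, and Adgrl2, an adhesion receptor, -0.34. Other Adgrl2 probe sets had -0.63 and 0.01. The higher receptors were Sctr, the secretin receptor, with 0.91 and 0.51 at its 2 probe sets, Gcgr, the glucagon receptor, with 1.04, Ednrb, an endothelin receptor, with 0.57, and Sstr2, a somatostatin receptor, with 0.36. Ednrb and Sstr2 did not meet the thresholds without BMP6h replicate 2.

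For glutamate and other ligand-gated receptors, 50 genes were measured, 1 higher and 3 lower, against 1.64% and 1.69% of all genes. Grm7, a metabotropic glutamate receptor, was 7.79, 7.51 and 7.85 at 6 hr and 6.85, 6.74 and 7.05 at 24 hr at its brightest probe set, late from control values of 7.72 to 7.95 (log2 -0.84, standard error 0.15, adjusted p = 0.34). Another Grm7 probe set had -0.98 and the remaining one -0.21. Gria2, an AMPA receptor subunit, had -0.39 and did not meet the thresholds without BMP6h replicate 2. Asic2, an acid-sensing channel, had -0.40 and Htr3a, a serotonin-gated channel, 0.46.

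Of 53 measured potassium, sodium and calcium channel genes and related channels, 2 were higher and 1 lower, against 1.64% and 1.69% of all genes. Scn7a, an atypical sodium channel gene, was 6.37, 5.58 and 6.87 at 6 hr and 7.42, 7.32 and 7.69 at 24 hr (log2 1.202, standard error 0.30), with 0.82 without BMP6h replicate 2, its lowest array, and 0.15 at another probe set. The higher Kcnc1 (0.36) and the lower Clcn3 (-0.26) did not meet the thresholds without that array.

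**Figure D4:**
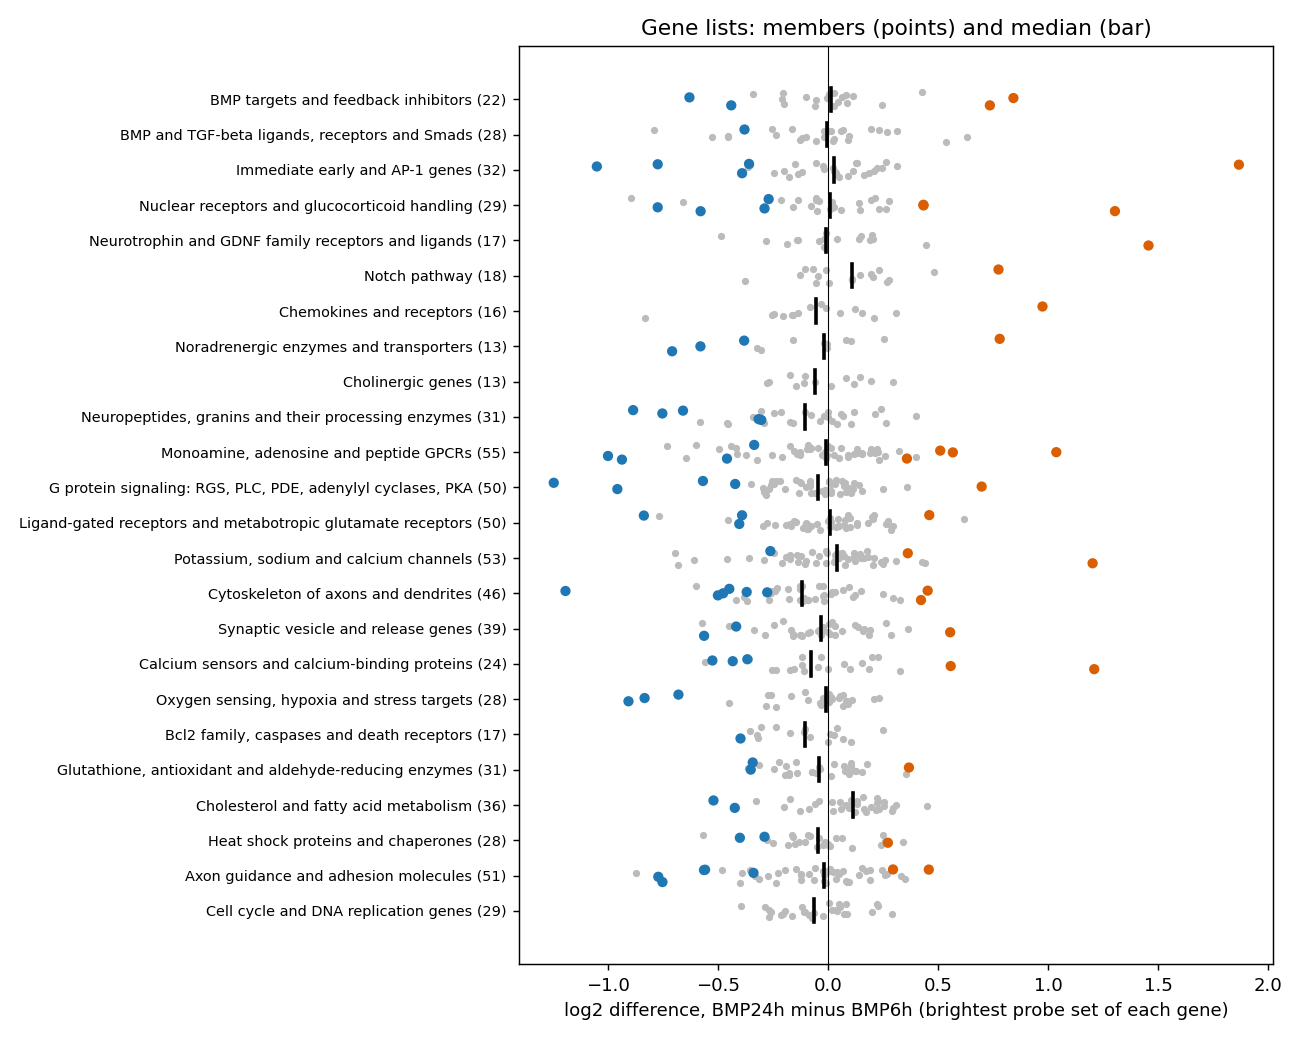
Log2 difference BMP24h minus BMP6h (x axis) of the measured members of 24 gene lists (y axis, number measured in parentheses), each gene at its brightest probe set. Orange and blue points met the thresholds of the Methods (higher and lower), gray points did not, and the black bar is the median of the list, which lay between -0.12 for the cytoskeleton and 0.11 for cholesterol and fatty acid metabolism.

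The neurotransmitter genes differed in their direction. Of 13 measured noradrenergic enzymes and transporters, 1 was higher and 3 were lower, against 1.64% and 1.69% of all genes. Gch1, the first enzyme in the synthesis of tetrahydrobiopterin, the cofactor of tyrosine hydroxylase, was 9.86, 9.80 and 9.80 at 6 hr and 10.62, 10.37 and 10.80 at 24 hr, late from control values of 9.56 to 9.80 (log2 0.78, standard error 0.15, adjusted p = 0.366). Its other probe sets had 0.76, 0.50 and -0.32.

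The monoamine oxidases, which degrade noradrenaline, had the other sign. Maoa was 11.21, 11.19 and 11.20 at 6 hr and 10.59, 10.41 and 10.86 at 24 hr (log2 -0.58, standard error 0.15, adjusted p = 0.859), with -0.74 at a second probe set. Maob was 8.81, 8.56 and 9.27 at 6 hr and 8.25, 8.06 and 8.20 at 24 hr (log2 -0.71, standard error 0.19, adjusted p = 0.87). Both were late, with no overlap between the times. Ddc, which makes dopamine from DOPA, had -0.38 (standard error 0.12), while Th had -0.01 (standard error 0.11). None of 13 measured cholinergic genes met the thresholds.

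At their brightest probe sets 5 of 31 measured neuropeptide and processing genes were lower, against 1.69% of all genes, and none higher, against 1.64%. The neuropeptide gene Sst was higher at a dimmer probe set (0.58, overlapping arrays) and had 0.06 at its brightest. The median of the list was -0.11, and -0.02 without BMP6h replicate 2. The study's own tables had placed several of the 5 lower genes among genes lower on these arrays, so the direction is not independent evidence. Adcyap1, which encodes PACAP, was 8.65, 8.89 and 8.44 at 6 hr and 7.77, 7.54 and 8.01 at 24 hr, with 6 hr arrays around the control values of 8.68 to 8.74 (log2 -0.89, standard error 0.17, adjusted p = 0.366). Its other probe sets had -0.86 and -0.25. Cga, the alpha subunit of glycoprotein hormones, went from 11.29, 11.27 and 11.36 to 10.52, 10.72 and 10.42 (log2 -0.75, standard error 0.12, adjusted p = 0.277).

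Cartpt, a neuropeptide precursor, went from 10.50, 10.38 and 10.67 to 9.98, 9.58 and 10.01 (log2 -0.66, standard error 0.16, adjusted p = 0.767). Pcsk2 and Cpd, a convertase and a carboxypeptidase that process such precursors, had -0.30 and -0.32, and Cpd did not meet the thresholds without BMP6h replicate 2. Among 39 measured genes of synaptic vesicles and release, Syn2, a synapsin, was late and higher at 2 probe sets (0.55 and 0.44), and the other one had 0.35 and did not meet the thresholds. Syt4, a synaptotagmin, had -0.56 with overlapping arrays, and Cask, a presynaptic scaffold, -0.42.

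The cytoskeleton list had 46 measured genes, of which 33 had a negative difference, against 2056 of all 4746, with a median of -0.12. Of the 46, 6 were lower and 2 higher, against 1.69% and 1.64% of all genes. Without BMP6h replicate 2 the median was -0.07. Csrp2, a LIM domain protein of actin filaments, was 9.92, 9.88 and 10.09 at 6 hr, level with control values of 9.81 to 10.17, and 8.76, 8.70 and 8.84 at 24 hr. It was 2.29-fold lower with no overlap (log2 -1.196, standard error 0.14, unadjusted p = 3.02e-05, adjusted p = 0.114, or 0.0378 with the replicate block).

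Mapt, the axonal microtubule protein tau, was 12.27, 12.25 and 12.29 at 6 hr and 11.76, 11.73 and 11.97 at 24 hr (log2 -0.45, standard error 0.12, adjusted p = 0.859), with -0.32 and -0.15 at other probe sets. Vim, an intermediate filament that non-neuronal cells also carry, had -0.48, Pak1, a kinase of actin dynamics, -0.50, and Pdlim1 -0.37, of which Pak1 did not meet the thresholds without BMP6h replicate 2. Mark1, a kinase that phosphorylates microtubule proteins, had 0.45 and Fhl2, a LIM domain cofactor, 0.42. Of the 26 fibroblast and matrix markers, which include Vim and Igfbp3, 19 had a negative difference and 7 a positive one, and the part of such cells in these results was not tested.

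Of 51 measured adhesion and guidance genes, 2 were higher and 5 lower, against 1.64% and 1.69% of all genes. Ptprr, a receptor tyrosine phosphatase, went from 9.16, 9.21 and 9.14 to 8.32, 8.24 and 8.63 (log2 -0.77, standard error 0.14, adjusted p = 0.366). Cd47, an integrin-associated protein, went from 10.01, 9.87 and 9.71 to 9.16, 9.44 and 9.31 (log2 -0.56, standard error 0.14). Alcam, a homophilic adhesion molecule, had -0.57 with overlapping arrays, App -0.34, Ptprm 0.29 and Olfm1 0.46. Other Alcam probe sets had 0.05 and -0.36 and did not meet the thresholds. App, Olfm1 and Chl1 did not meet the thresholds at these probe sets without BMP6h replicate 2. A second, dimmer Olfm1 probe set had 0.52, and 0.57 without that array, where it still met them.

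Of 28 measured oxygen sensing genes 3 were lower, against 1.69% of all genes, and none higher, against 1.64%. The list as a whole had 14 positive and 14 negative differences and a median of -0.01. Egln3, a prolyl hydroxylase that marks hypoxia-inducible factor for degradation and is known from dying sympathetic neurons, was 9.29, 9.08 and 9.32 at 6 hr and 8.13, 8.30 and 8.22 at 24 hr. The 24 hr arrays lay below all control values, which were 9.34 to 9.42, and the difference between the times was -1.01 (standard error 0.12, unadjusted p = 3.92e-05, adjusted p = 0.114), with -0.91 at a second probe set. Igfbp3, which binds insulin-like growth factors, went from 8.13, 8.37 and 8.08 to 7.58, 7.59 and 6.90 (log2 -0.84, standard error 0.26), and Adm, the peptide adrenomedullin, had -0.68 with overlapping arrays. A dimmer Igfbp3 probe set had -0.23 and did not meet the thresholds.

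Among 17 measured genes of cell death, Hrk, a pro-apoptotic member of the Bcl2 family, had -0.40 (standard error 0.15) and 3 further probe sets with -0.43, -0.34 and -0.55. Its first probe set did not meet the thresholds without BMP6h replicate 2. Glutathione and antioxidant enzymes had 1 of 31 higher, Adh5 (0.37), and 2 lower, Gsr (-0.35) and Gsta1 (-0.34), whose probe set family may share signal with related genes and which did not meet the thresholds without that array. Other Gsr probe sets had -0.46 and 0.03, and other Gsta1 probe sets -0.03 and -0.003. Chaperones had 1 of 28 higher, P4hb (0.27), and 2 lower, Hspb1 (-0.40) and Fkbp4 (-0.29), against 1.64% higher and 1.69% lower of all genes. None of the 3 met the thresholds at these probe sets without BMP6h replicate 2. Other Hspb1 probe sets had -0.61, -0.37 and 0.02, and the first of these still met the thresholds without that array (-0.53). None of 29 measured cell cycle genes met the thresholds at its brightest probe set.

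Cholesterol and fatty acid metabolism was the list with the highest median, 0.11, and 27 of its 36 measured genes had a positive difference, against 2690 of all 4746. The 2 members at the thresholds were nevertheless lower, Acsl1 and Acadm, a fatty acid oxidation enzyme (-0.52), and Acadm did not meet them without BMP6h replicate 2. The median was 0.11 without BMP6h replicate 2 as well. No list was tested as a set.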

How the data were processed

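RNA was measured on 9 Affymetrix rat arrays. The authors deposited log2 expression values, made by RMA in Partek Genomics Suite 6.5 with the batch difference then removed. A check found batch means within 6.7e-05 of each other for every probe set, so no batch effect on a mean can be seen in these values, and no 2 arrays were identical. Of 8740 tested probe sets 7022 name 1 gene, 308 several and 1410 none here. Precision is limited by the number of arrays.

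The test of BMP24h against BMP6h was made in limma 3.58.1 (R 4.3.3) over all 9 arrays, with terms for condition and batch (5 residual degrees of freedom) and p-values adjusted by Benjamini and Hochberg over the 8740 probe sets. The thresholds of the Methods (unadjusted p under 0.05, 1.2-fold) were applied to the same fit. The fit was tested on simulated data. The conditions share 3 dissections per the Methods, but the sources used here do not tie a replicate number to a dissection, so a block for the number is an alternative.

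Named genes are the 12 largest in each direction with no overlap between the times, up to 8 returned genes in each direction, members of the 24 gene lists at the thresholds, and Id1, Id2, Id3, Dusp1, Nog, Hand1, Klf10, Vegfa and Smad1. Of these genes 2 are not reported here. Members of lists stand at their brightest probe set. The comparison, the 24 gene lists and the 5 marker lists were chosen with earlier results of these data known. Alternatives were an ordinary analysis of variance, a fit with no batch, a block for the replicate number, batch 2 alone, only the brighter probe sets, renewed quantile normalization, median centring, only the 2 groups, a trend of variance with intensity, array weights, a fold change of 1.5, gene averages, and each array left out in turn.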

Additional observations from a re-analysis of the deposited data

How the results depend on the processing

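The number of probe sets past the adjusted test was 0 in each of the 9 limma fits that left out 1 array (from 0 to 0), with the ordinary analysis of variance, in batch 2 alone, with quantile normalization or median centring, in the 2 groups alone and over gene averages. It was 6 without a batch term, 7 when the variance followed intensity, 10 with only the brighter probe sets and 198 with array weights. Without 1 array the probe sets at the thresholds of the Methods ran from 76 to 382 higher and from 68 to 342 lower, those that had moved on from 80 to 204 and those that had returned from 13 to 452. The lowest and highest counts of higher and of lower probe sets came without BMP24h replicate 1 and without BMP6h replicate 3. A fit without a batch term gave 190 higher and 64 returned, and the analysis of variance 25 returned. Array weights gave 286 higher, 413 lower, 399 moved on and 80 returned. Batch 2 alone gave 41 higher, 39 lower, 53 moved on and 15 returned, and the 2 groups alone, which have no control to set a course by, 72 higher and 85 lower. Gene averages, over 4746 genes, gave 75 higher, 104 moved on and 23 returned. A fold change of 1.5 gave 47 higher, 47 lower, 63 moved on and 17 returned. The deposited values hold no batch difference in the means, so the fit without a batch term had the same log2 differences. It counted 6 residual degrees of freedom in place of 5. The causes of the other shifts were not tested, apart from the fewer arrays, features or differences that some settings use. With the replicate number as a block 5 probe sets passed the adjusted test and 61 had returned. Whether the numbers pair the samples could not be settled. The deviations from the group means correlated between BMP24h and BMP6h by 0.23 and 0.53 for numbers 2 and 3, and replicate 2 minus replicate 3 by 0.40. For number 1 the check is void, since batch 1 holds only that number and the removal of the batch difference makes its 3 deviations sum to about zero.

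Of 2154 values of named probe sets under the alternatives 2045 kept their sign without a call, 98 kept it with an adjusted p under 0.05 and 11 changed sign. Over gene averages Nr3c1 had -0.012, Id3 0.0064, Klf10 -0.0402 and Vegfa 0.018. With array weights Id3 had 0.0626 and Klf10 -0.148. With single arrays left out Id1 ran from -0.0812 to 0.143, Hand1 from -0.218 to 0.0016 and Klf10 from -0.145 to 0.174. Of 480 list medians 444 moved by less than the standard deviation of that median over the differences between arrays of the same replicate number. That pairing by number could not be settled.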
